A study of Pyrus betulifolia with 6 samples.

Results

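TIR-type immune receptor genes were examined in root tips of Pyrus betulaefolia, a wild pear used as a rootstock, after 24 h of B deficiency. A gene was taken as a member when its listed protein family (Pfam) domains included a TIR domain and its mean over all 6 libraries was at least 0.5 FPKM (fragments scaled by transcript length and by the mapped fragments of the library). Of 37815 genes listed, 317 carried a TIR domain, and 237 of these reached the minimum and were kept. Members were thus selected on their mean level, which is given here as a description only. They comprised 201 genes with both a TIR and an NB-ARC domain, 27 genes with a TIR but no NB-ARC domain, and 9 loci with IDs such as novel888, which the authors added to the annotation (5 with and 4 without an NB-ARC domain). Of the 80 TIR genes below the minimum, 57 had an NB-ARC domain, none was an added locus, and 21 were listed at 0 in all 6 libraries.

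The 2 groups were roots of wild-type plants grown for 24 h in nutrient solution without boron (B deficiency) and roots of wild-type plants kept for the same time in solution supplied with boron (control), with 3 libraries each. The labels call the libraries biological replicates of root tips, and the sources do not say whether a library pools several plants. The authors mapped the P. betulaefolia reads to P. bretschneideri, an Asian cultivated pear, so a member is a P. bretschneideri gene model and not a P. betulaefolia allele.

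TIR domains are shared by plant immune receptors, animal Toll-like receptors and bacterial defence proteins, and in plants they act as enzymes that cleave NAD+. In a typical plant receptor of this kind (a TNL), the TIR domain is followed by an NB-ARC nucleotide-binding switch and by leucine-rich repeats (LRRs) that take part in recognising pathogen effectors. In Arabidopsis, the products of TIR enzymes are bound by EDS1 in complex with PAD4 or SAG101, which then act with helper receptors that carry an RPW8 domain (ADR1 with PAD4, NRG1 with SAG101). The tobacco N protein, which gives resistance to tobacco mosaic virus (TMV), and Arabidopsis SNC1 (suppressor of npr1-1), a receptor known from an autoimmune mutant, are the best known proteins named in the pear descriptions.

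The annotation was checked against the name of the group. Of the 237 members, 168 were described as TMV resistance protein N or N-like and 23 as suppressor of npr1-1, and 208 had a resistance or TIR wording in their first informative description. Any listed database hit with such wording was found for 223 members. LRR domains were listed for 187 members, an RPW8 domain for none, and the gene ontology terms signal transduction, ADP binding and hydrolase activity for 229, 209 and 206 members. The remaining 29 first descriptions included other protein families, such as an RNA helicase (LOC103936864), a class of homeodomain transcription factor (LOC125473090) and a TOPLESS-related corepressor (novel1291). In 4 members the second TIR family of Pfam, TIR_2, was the only TIR domain. A database hit was shared with another member by 138 members, so reads of close copies could have been divided among them in the authors' quantification, and the values of single genes carry that uncertainty.

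The libraries were alike in their summed values, which ran from 951246 to 971102 FPKM, and the files hold no read counts behind single values. Across all genes, B deficiency library 2 stood apart from the other 2 of its group, with correlations of 0.959 and 0.962 against 0.976 between the others and 0.975 to 0.976 among control libraries. Genes were listed for root tips by their descriptions, 92 in all, and transcription factors such as PLETHORA-related AIL6 and SHORT-ROOT were present. Most of the list is from wide families such as SCARECROW-like, COBRA-like and ROOT HAIR DEFECTIVE 3 genes, which need not mark root tips. Of the 73 tested, 1 rose (1.37%, beside 4.37% of all genes) and 2 fell (2.74%, beside 3.83%). Of 66 genes listed for green tissue, 6 were at 0 throughout, and of the 32 tested none rose and 8 fell (25%, where 3.83% of all genes fell), with a median log2 fold change of -0.54, against -0.05 for all genes. Their summed level was 627.0 to 687.0 FPKM in B deficiency libraries and 670.0 to 704.1 FPKM in control libraries, most of it from a single RuBisCO small-chain gene, LOC103928816, which did not pass (mean 532 FPKM, adjusted p = 0.385). The part of these markers in the results for the receptors was not tested.

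The levels of the members spanned 0.512 to 210 FPKM in the mean, with a median of 3.64 FPKM, against 9.0 FPKM for all 28129 genes tested. Only 15 members averaged more than 20 FPKM, and the 5 highest held 26.8% of the summed level. Summed over all members, the level was 1960.4, 2269.3 and 1976.4 FPKM in the B deficiency libraries, against 1990.4, 1982.8 and 2001.3 FPKM in control libraries. The sum was thus highest in B deficiency library 2, and the other 2 B deficiency libraries lay just below all 3 control libraries. As a share of all FPKM this was 0.202% to 0.237% under B deficiency and 0.208% to 0.210% in the control. Just inside the minimum lay LOC125473444 (0.44, 0.37 and 0.41 FPKM in B-deficient roots, 0.59, 0.62 and 0.64 FPKM in control roots) and LOC103935473 (0.22, 0.49 and 0.32 FPKM in B-deficient roots, 0.79, 0.68 and 0.59 FPKM in control roots). Just outside it lay LOC103929077 (1.04, 0.65 and 0.40 FPKM in B-deficient roots, 0.24, 0.15 and 0.49 FPKM in control roots) and LOC125475198 (0.50, 0.28 and 0.43 FPKM in B-deficient roots, 0.31, 0.77 and 0.62 FPKM in control roots).

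Single receptor genes moved in both directions under B deficiency, while the median of the family stayed near that of all genes. A gene was said to rise or fall when limma, fitted to log2(FPKM + 0.1) of all 28129 genes, gave a change of at least 1 on the log2 scale (2-fold) and an adjusted p under 0.05. By this test 37 members rose and 23 fell, and 177 did not pass. The 60 members that passed were 25.3% of all members, where 8.19% of all genes tested passed. The 37 that rose were 15.6% of members, beside 4.37% of all genes, and the 23 that fell were 9.70%, beside 3.83%. In all 60 the libraries of the 2 groups did not overlap, as in 2301 of the 2305 genes that passed overall. The median log2 fold change of the members was -0.01, against -0.05 for all genes, and the median absolute log2 fold change was 0.62, against 0.23.

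**Figure D1:**
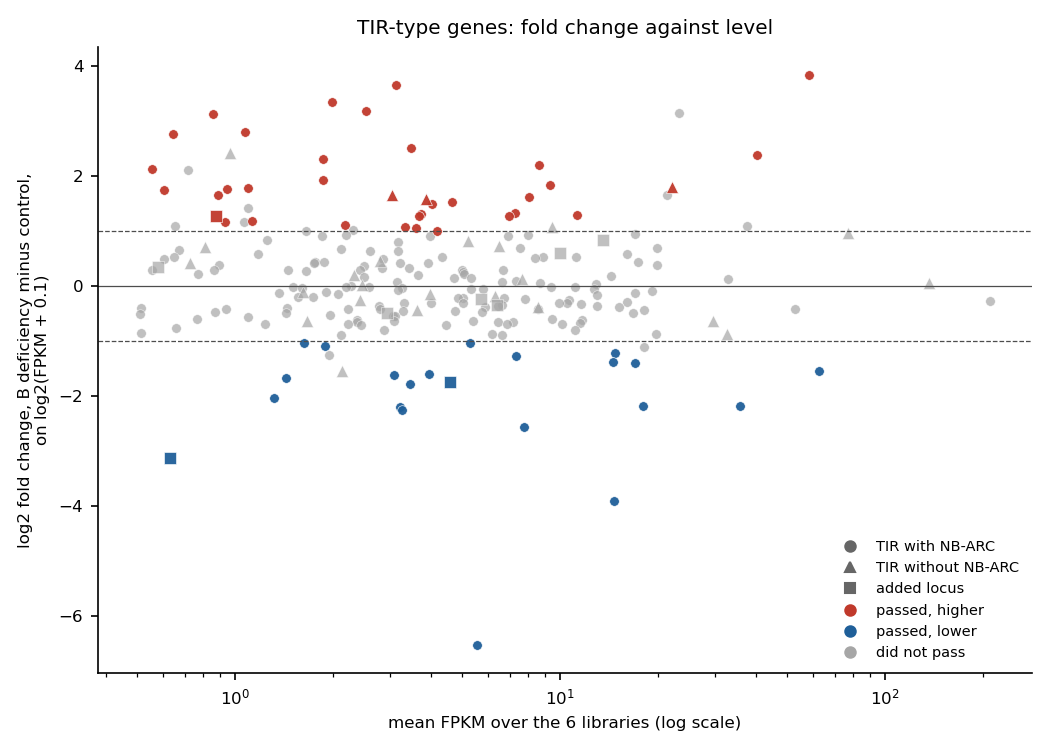
Log2 fold change (B deficiency minus control, on log2(FPKM + 0.1)) of 234 members against their mean FPKM on a log axis; circles are genes with TIR and NB-ARC domains, triangles genes without NB-ARC and squares added loci, and dashed lines mark changes of 1 and -1. The 3 members listed at 0 in every library of a group are not drawn, and points that passed lie on both sides at low and at high levels.

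A minimum on the mean lets in genes whose level reaches it through one group only, which favours genes that differ. In 30 members a group mean was below 0.5 FPKM, and of these 13 rose, 4 fell and 13 did not pass. Of the 207 members whose means were at least 0.5 FPKM in both groups, 24 rose and 19 fell, which is 20.8%, where 6.32% of the 26931 genes that met the same condition passed. Of the 80 TIR genes below the minimum, 59 entered a fit without a minimum, in which 8 were called higher and 1 lower. The share of all genes called in that fit was not taken. The 8 include genes such as LOC125473224, listed at 0 in every control library, where the fold depends on the added 0.1. These counts are thus not read as a result. Without a minimum fold, 55 members were higher and 51 lower at an adjusted p under 0.05, which is 106 of 237, where 27.3% of all genes passed, 12% higher and 15.4% lower. The 2 groups of libraries did not overlap in 150 members (63.3%), 73 higher and 77 lower under B deficiency, where 45.1% of all genes did not overlap.

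Of the 100 members with a mean of at least 5 FPKM, 9 rose (9.0%) and 11 fell (11.0%), where 3.11% of all genes at that level rose and 2.09% fell. Of the 137 members below 5 FPKM, 28 rose (20.4%) and 12 fell (8.76%), where 6.72% of all genes at that level rose and 7.07% fell, and the 28 include members that reached the minimum through the B deficiency libraries alone. Levels above 20 FPKM were reached under B deficiency by 3 members that rose, and in the control by 7 members that fell. In every fit with 1 library left out, 47 of the 60 calls were made again (28 higher, 19 lower), and 54 were made without B deficiency library 2.

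Among receptors with both TIR and NB-ARC domains, 32 of 201 rose (15.9%, beside 4.37% of all genes) and 21 fell (10.4%, beside 3.83%). The other 148 did not pass, and the median log2 fold change of the 201 was -0.02. LRR domains were listed for 185 of the 201, of which 30 rose (16.2%) and 18 fell (9.73%). Of the 16 without an LRR domain, 2 rose (12.5%) and 3 fell (18.8%). For comparison, 213 genes with an NB-ARC but no TIR domain were tested (336 listed). Of these, 16 rose and 16 fell, which is 15.0%, where 8.19% of all genes passed. Their median absolute log2 fold change was 0.41, and whether the 2 kinds of receptor differ was not tested.

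The largest rise belonged to LOC103930956, an N-like TNL with 108.00, 121.92 and 96.92 FPKM in B deficiency libraries, against 7.49, 6.70 and 8.47 FPKM in control libraries (log2 fold change 3.83, SE 0.11, adjusted p = 6.34e-06). All B deficiency libraries lay far above all control libraries, and a gene at a modest level in the control was among the most abundant receptors under B deficiency. LOC103958002, another abundant receptor with a TIR and an NB-ARC domain, had 68.51, 68.21 and 67.00 FPKM under B deficiency, against 14.99, 13.70 and 10.60 FPKM in control roots (log2 fold change 2.38, SE 0.12, adjusted p = 3.40e-05). It was among the 5 highest of its class in the mean, and its 3 B deficiency libraries nearly coincided.

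The other large rises were in genes of low level in the control. LOC103929427 had 5.15, 6.90 and 5.63 FPKM under B deficiency, against 0.35, 0.38 and 0.39 FPKM in control roots (log2 fold change 3.65, SE 0.19). LOC103941158, described as suppressor of npr1-1, had 2.44, 6.26 and 2.54 FPKM under B deficiency, against 0.22, 0.29 and 0.22 FPKM in control roots (log2 fold change 3.35, SE 0.39). In LOC103941158 B deficiency library 2 was the highest, and the other 2 still exceeded all control libraries. LOC125475726 had 4.10, 5.17 and 4.63 FPKM under B deficiency, against 0.53, 0.49 and 0.28 FPKM in control roots (log2 fold change 3.18, SE 0.25). LOC103956892 had 1.87, 1.43 and 1.54 FPKM under B deficiency, against 0.08, 0.08 and 0.13 FPKM in control roots (log2 fold change 3.1, SE 0.34). Adjusted p-values of these 4 genes ran up to 0.00100, and their fold changes are on the log2(FPKM + 0.1) scale, which understates the change of low genes. LOC125470335, also described as suppressor of npr1-1 (1.32, 2.72 and 1.82 FPKM in B-deficient roots, 0.32, 0.12 and 0.14 FPKM in control roots), LOC103951171 (1.43, 1.07 and 1.09 FPKM in B-deficient roots, 0.08, 0.08 and 0.11 FPKM in control roots) and LOC125475728 (4.84, 8.43 and 4.73 FPKM in B-deficient roots, 0.90, 0.67 and 1.32 FPKM in control roots) completed the 8 largest rises, with log2 fold changes of 2.81, 2.76 and 2.51. Control means of LOC103929427, LOC103941158, LOC125475726, LOC103956892, LOC125470335 and LOC103951171 were 0.373, 0.243, 0.433, 0.097, 0.193 and 0.09 FPKM, below the minimum. These genes are members through their B deficiency libraries, so their rises follow in part from the selection. All 8 of the largest rises kept their call in each alternative fit that tested them, which does not remove this limit.

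The largest fall was in LOC103929908, a TNL described as suppressor of npr1-1, which was listed at 0.07, 0 and 0 FPKM in B deficiency libraries, against 12.49, 11.53 and 9.15 FPKM in control libraries (log2 fold change -6.53, SE 0.30, adjusted p = 2.48e-05). This gene, at a moderate level in all control libraries, was thus at or next to 0 in all B deficiency libraries. The size of its fold depends on the added 0.1. LOC103949495 had 2.23, 1.61 and 1.41 FPKM under B deficiency, against 28.82, 25.65 and 28.07 FPKM in control roots (log2 fold change -3.92, SE 0.16, adjusted p = 1.90e-05). LOC103960652 was listed at 0 in all 3 B deficiency libraries and at 2.32, 0.83 and 1.32 FPKM in control libraries, so that no fold can be given (adjusted p = 0.00175).

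Further falls were seen in receptors with a moderate to high control level. LOC103945598 had 1.61, 2.94 and 2.06 FPKM under B deficiency, against 14.04, 13.39 and 12.34 FPKM in control roots (log2 fold change -2.57, SE 0.20). LOC103957786 had 10.28, 22.26 and 8.81 FPKM under B deficiency, against 55.86, 58.94 and 59.46 FPKM in control roots (log2 fold change -2.19, SE 0.31). B deficiency library 2 was again the highest of its group in LOC103957786, and lay well below each control library. LOC103955253, described as suppressor of npr1-1, had 8.92, 6.66 and 4.25 FPKM under B deficiency, against 28.34, 25.80 and 33.96 FPKM in control roots (log2 fold change -2.19, SE 0.25). LOC103962375, among the 5 most abundant receptors with NB-ARC, had 30.17, 37.36 and 28.21 FPKM under B deficiency, against 106.53, 95.08 and 80.03 FPKM in control roots (log2 fold change -1.55, SE 0.13). Adjusted p-values of these 4 genes were at most 0.00230. LOC103959194 (0.72, 1.62 and 0.97 FPKM in B-deficient roots, 5.36, 6.65 and 4.34 FPKM in control roots) and LOC103960649 (1.36, 0.96 and 0.95 FPKM in B-deficient roots, 5.83, 4.71 and 5.56 FPKM in control roots) fell by 2.25 and 2.21 on the log2 scale.

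**Figure D2:**
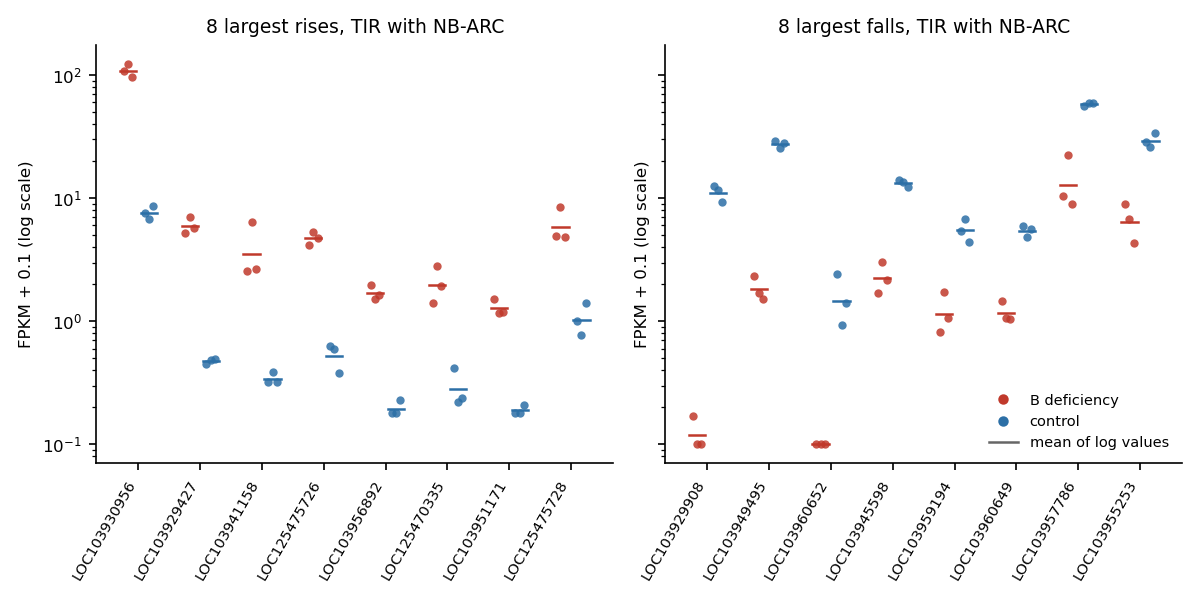
FPKM + 0.1 on a log axis in each library for the 8 largest rises (left) and the 8 largest falls (right) among receptors with TIR and NB-ARC domains; points are libraries (red, B deficiency; blue, control, 3 each) and lines the means of the log values. The groups do not overlap in any of the 16 genes, and points on the lowest line are values listed at 0.

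The most abundant member, LOC103935600, did not pass: it had 212.92, 154.11 and 205.03 FPKM under B deficiency, against 238.38, 222.30 and 226.34 FPKM in control roots (log2 fold change -0.28, SE 0.12, adjusted p = 0.126). LOC103926717, also among the 5 highest, had 38.08, 53.85 and 44.27 FPKM under B deficiency, against 54.45, 61.87 and 65.43 FPKM in control roots, a change of -0.43 on the log2 scale that was under the minimum fold (adjusted p = 0.0478). Among the 5 highest receptors with an NB-ARC domain, LOC103930956 and LOC103958002 rose, LOC103962375 fell, and the other 2 did not pass. These 5 were ranked on the mean over both groups. LOC103930956 and LOC103958002 averaged 7.55 and 13.1 FPKM in control roots, and are among the 5 through their B deficiency libraries. The rises among the 5 thus follow in part from the ranking.

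Of the 23 members described as suppressor of npr1-1, 5 rose and 2 fell, where 4.37% of all genes rose and 3.83% fell. The 2 that fell include the largest fall of all. Among those that rose, LOC103941158, LOC125470335, LOC103940276 and LOC125478334 averaged 0.243, 0.193, 0.38 and 0.197 FPKM in control roots, below the minimum. They are members through their B deficiency libraries, so the count of rises is not read as a result. In addition to LOC103941158 and LOC125470335, LOC103940276 rose, with 1.43, 1.39 and 1.36 FPKM under B deficiency, against 0.36, 0.31 and 0.47 FPKM in control roots (log2 fold change 1.65, SE 0.27, adjusted p = 0.00454), though its change was 0.80 with a pseudocount of 1. LOC108865430 was just past the minimum fold, with 5.57, 4.82 and 6.48 FPKM under B deficiency, against 3.1, 2.08 and 3.1 FPKM in control roots (log2 fold change 1.01, SE 0.20, adjusted p = 0.00892). Its change was under the minimum, at 0.90, when B deficiency library 3 was left out, and at 0.82 when control library 2 was left out or a pseudocount of 1 was used. Genes with this description but no listed TIR domain were added as a list after values were seen. Of these 11 genes, 9 were tested, and 4 rose (44.4%, beside 4.37% of all genes) and 2 fell (22.2%, beside 3.83%). The rises include genes at or near 0 in control roots, such as LOC108866266, listed at 0 in every control library.

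Some members that passed carried other domains beside those of a typical receptor, as the annotation of single gene models lists them. LOC103936864, which has helicase domains and is described as a DEAD-box RNA helicase, had 1.21, 0.57 and 1.12 FPKM under B deficiency, against 0.05, 0.17 and 0.22 FPKM in control roots (log2 fold change 2.12, SE 0.49, adjusted p = 0.0175). This call was lost without B deficiency library 1 (adjusted p = 0.0584), without B deficiency library 3 (adjusted p = 0.0629) and with a pseudocount of 1 (log2 fold change 0.77). LOC125476709, with a DUF1863 domain, had 3.38, 2.55 and 3.57 FPKM under B deficiency, against 0.49, 0.48 and 0.71 FPKM in control roots (log2 fold change 2.31, SE 0.24, adjusted p = 0.000615). LOC103949614 had 9.76, 8.17 and 8.61 FPKM under B deficiency, against 21.30, 18.73 and 22.16 FPKM in control roots (log2 fold change -1.22, SE 0.10, adjusted p = 0.000219). LOC103949499, with an Armet domain, had 7.31, 15.50 and 6.59 FPKM under B deficiency, against 25.20, 23.43 and 24.20 FPKM in control roots (log2 fold change -1.41, SE 0.29, adjusted p = 0.0117). LOC125478332 had 5.53, 9.03 and 6.42 FPKM under B deficiency, against 2.04, 2.88 and 2.08 FPKM in control roots (log2 fold change 1.53, SE 0.22), and LOC103935009 had 8.39, 12.25 and 9.27 FPKM under B deficiency, against 4.16, 3.60 and 4.28 FPKM in control roots (log2 fold change 1.28, SE 0.16). LOC103941925, described as TAO1-like after an Arabidopsis TNL, had 4.15, 5.16 and 4.40 FPKM under B deficiency, against 1.73, 2.48 and 2.16 FPKM in control roots, and its log2 fold change of 1.08 was 0.84 to 0.99 with a pseudocount of 1, without B deficiency library 2 or without control library 1. In LOC103939567 (0.45, 0.76 and 0.68 FPKM in B-deficient roots, 2.75, 2.25 and 1.72 FPKM in control roots) the log2 fold change of -1.68 was -0.98 with a pseudocount of 1.

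Among the 27 TIR genes without an NB-ARC domain, 4 rose, none fell and 23 did not pass, with a median log2 fold change of 0.20. At an adjusted p under 0.05 with no minimum fold, 6 were higher and 4 lower, where 12% of all genes were higher and 15.4% lower. The 4 lower ones changed by less than 2-fold. The 4 that rose were 14.8% of the class, beside 4.37% of all genes. LOC103940271, which has TIR domains alone, had 33.86, 32.61 and 37.01 FPKM in B deficiency libraries, against 10.17, 8.85 and 10.63 FPKM in control libraries (log2 fold change 1.80, SE 0.091, adjusted p = 3.40e-05). Its groups were far apart and each varied little. LOC103938708 had 0.76, 1.64 and 1.45 FPKM in B deficiency libraries and was listed at 0 in all 3 control libraries, with no fold to be given (adjusted p = 0.00176). It reached the minimum through its B deficiency libraries alone. LOC103944968 had 4.25, 6.74 and 3.18 FPKM under B deficiency, against 1.32, 1.14 and 1.69 FPKM in control roots (log2 fold change 1.65, SE 0.29, adjusted p = 0.00562).

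A pair of genes joined a TIR to a PB1 domain, a module through which proteins bind one another. LOC103954249 had 88.78, 125.61 and 92.03 FPKM under B deficiency, against 50.79, 52.37 and 52.18 FPKM in control roots (log2 fold change 0.96, SE 0.13, adjusted p = 0.00167). It lay just under the minimum fold, and passed it at 1.01 with median-of-ratios scaling, at 1.05 without B deficiency library 1 and at 1.03 without B deficiency library 3. LOC125470230 had 4.46, 9.72 and 3.70 FPKM under B deficiency, against 2.32, 1.49 and 1.55 FPKM in control roots (log2 fold change 1.58, SE 0.36, adjusted p = 0.0169). All B deficiency libraries of LOC125470230 exceeded all control libraries, but the call was lost without control library 2 (adjusted p = 0.0678) and without control library 3 (adjusted p = 0.0665).

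The remaining 3 of the 5 most abundant genes of this class did not pass. LOC125473090 had 132.68, 147.47 and 139.19 FPKM under B deficiency, against 135.66, 129.05 and 137.68 FPKM in control roots, and the groups overlapped (log2 fold change 0.059, SE 0.057, adjusted p = 0.485). LOC103965786 had 24.40, 20.63 and 24.59 FPKM under B deficiency, against 43.87, 41.53 and 41.32 FPKM in control roots (log2 fold change -0.87, SE 0.082, adjusted p = 0.000399). LOC125474805 had 20.59, 27.32 and 22.11 FPKM under B deficiency, against 33.68, 37.63 and 36.74 FPKM in control roots (log2 fold change -0.63, SE 0.11, adjusted p = 0.00562). Both of the last were lower in every B deficiency library, by less than the minimum fold. Chosen after their values were seen, genes that join a TIR domain to that of a regulator or signalling enzyme were LOC103957516 with a WRKY domain (3.01, 3.43 and 2.82 FPKM in B-deficient roots, 4.36, 4.20 and 4.04 FPKM in control roots, adjusted p = 0.0399) and LOC125476204 with a PP2C phosphatase domain (8.67, 6.93 and 8.75 FPKM in B-deficient roots, 4.55, 5.20 and 4.82 FPKM in control roots, adjusted p = 0.00522). Their log2 fold changes of -0.44 and 0.72 were under the minimum.

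Of the 9 added loci, 1 rose (11.1%, beside 4.37% of all genes) and 2 fell (22.2%, beside 3.83%). The locus novel2657, with a TIR domain alone, was listed at 0, 0.12 and 0.05 FPKM under B deficiency, against 1.31, 1.05 and 1.25 FPKM in control roots (log2 fold change -3.1, SE 0.46, adjusted p = 0.00275). The locus novel1291, with NB-ARC and a description as a TOPLESS-related protein, had 1.28, 2.66 and 2.43 FPKM under B deficiency, against 7.13, 7.29 and 6.78 FPKM in control roots (log2 fold change -1.75, SE 0.26, adjusted p = 0.00272). The locus novel888 had 1.45, 1.33 and 1.05 FPKM under B deficiency, against 0.63, 0.46 and 0.34 FPKM in control roots (log2 fold change 1.27, SE 0.31, adjusted p = 0.0204). Its call was lost when B deficiency library 1 (adjusted p = 0.0645) or control library 2 or 3 (adjusted p = 0.0585 each) was left out, and with a pseudocount of 1 (log2 fold change 0.63).

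The spread between libraries of a group is given as a description over genes. The median within-group SD on the log2 scale was 0.25 for members and 0.15 for all genes tested, and at a mean of at least 5 FPKM it was 0.20 for members and 0.11 for all genes. In a gene-by-gene view, the B deficiency library farthest from its group mean was library 2 in 139 members, library 1 in 59 and library 3 in 39, while in the control the 3 libraries held 80, 77 and 80 members. The median absolute deviation of members on the log2 scale was 0.166, 0.260 and 0.134 in B deficiency libraries 1, 2 and 3, and 0.112 to 0.118 in control libraries. For all genes the corresponding values were 0.0966, 0.135 and 0.0949 under B deficiency, and 0.0663 to 0.0686 in the control.

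In 10 members (4.22%) the libraries of a group spanned a range of at least 4-fold on the scale of FPKM + 0.1, where 3.1% of all genes did. None of the 10 passed the test. At a mean of at least 5 FPKM these were 3 of 100 members (3.00%) and 0.557% of all genes. LOC125468212, an N-like TNL, had 67.73, 4.55 and 40.43 FPKM in B deficiency libraries, against 0.56, 25.32 and 0.98 FPKM in control libraries (log2 fold change 3.15, SE 1.51, adjusted p = 0.166). Library 2 of each group was the odd one, low under B deficiency and high in the control, and the fit without control library 2 gave a log2 fold change of 4.79 with an adjusted p of 0.0340. LOC125472673 had 20.14, 128.73 and 15.58 FPKM under B deficiency, against 9.43, 10.15 and 42.37 FPKM in control roots (log2 fold change 1.10, SE 0.88, adjusted p = 0.398). LOC125471873 had 5.16, 52.24 and 43.67 FPKM under B deficiency, against 4.13, 17.78 and 5.03 FPKM in control roots (log2 fold change 1.65, SE 0.93, adjusted p = 0.231), and passed only without B deficiency library 1 (log2 fold change 2.71, adjusted p = 0.0259). B deficiency library 2 stood out in LOC125468212 and LOC125472673, and B deficiency library 1 in LOC125471873. In the control, library 2 stood out in LOC125468212 and LOC125471873, and library 3 in LOC125472673. These 3 genes were chosen for their spread after their values were seen.

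Several genes of low mean were listed at 0 in some libraries of a group and not in others. LOC125471496 had 5.46, 0 and 0 FPKM under B deficiency, against 0.39, 0 and 4.16 FPKM in control roots. In LOC125470733 B deficiency library 1 had 3.11 FPKM, and the other 5 libraries were listed at 0. LOC103945477 had 1.75, 0 and 2.13 FPKM under B deficiency, against 0, 0.41 and 0 FPKM in control roots. In all 3 the groups overlapped and the call was not made, though LOC103945477 passed as higher without B deficiency library 2 (log2 fold change 3.56, adjusted p = 0.0134) and with library weights (log2 fold change 3.20, adjusted p = 0.0302).

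**Figure D3:**
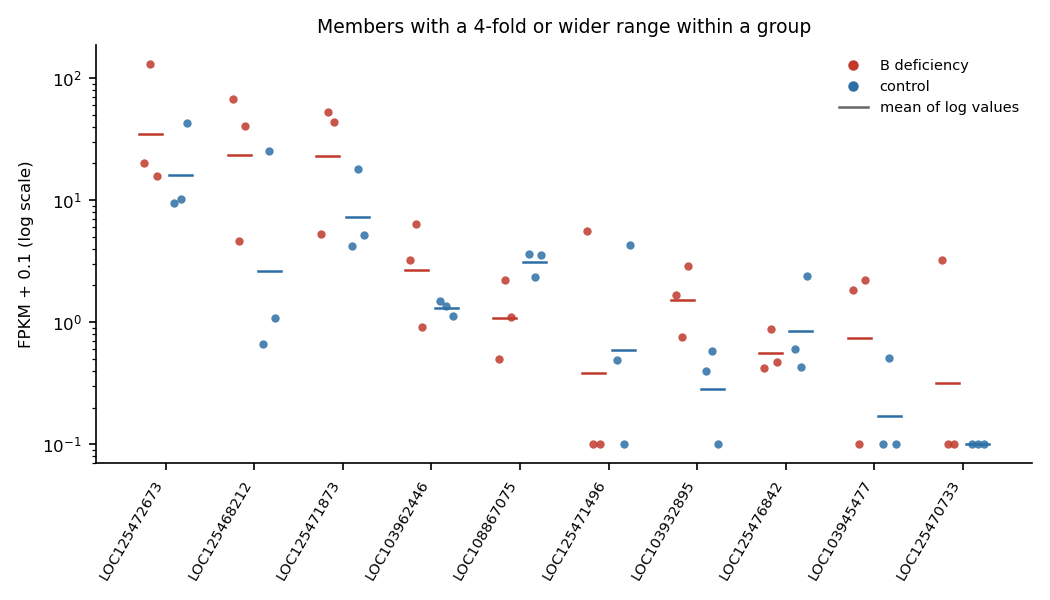
FPKM + 0.1 on a log axis in each library (red, B deficiency; blue, control, 3 each; lines are means of the log values) for the 10 members whose libraries span at least 4-fold within a group. The groups overlap in 8 of the 10 genes, and points on the lowest line are values listed at 0.

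Receptor genes of this kind commonly lie in clusters of tandem copies. The files give IDs only, and no positions were available here, so members were grouped where NCBI gene numbers lay within 5 of each other, a rule chosen after values were seen. This gave 12 runs of 3 or more members with 46 members in all. In 6 runs 1 or more members passed, 12 of the 46, where 25.3% of all members and 8.19% of all genes passed. No run held members that rose and members that fell, which a run with 1 member past the test could not. LOC125472674, LOC125472675 and LOC125472676 rose together, with log2 fold changes of 1.61 (SE 0.16), 1.76 (SE 0.32) and 1.85 (SE 0.10). LOC125472676 had 13.76, 16.55 and 13.65 FPKM under B deficiency, against 3.90, 4.06 and 4.01 FPKM in control roots (adjusted p = 4.92e-05), while its neighbour by number, LOC125472673, is the wide-ranging gene described above. LOC125475726, LOC125475728 and LOC125475730 rose by 3.18, 2.51 and 1.93 on the log2 scale. LOC103960649 and LOC103960652 fell, and the third gene of that run, LOC103960653, had 4.41, 4.10 and 4.88 FPKM under B deficiency, against 5.86, 5.48 and 5.38 FPKM in control roots (adjusted p = 0.0726).

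LOC103940271 and LOC103940276, both given above, rose in 1 run of 4 members. In 2 runs a single member moved and its neighbours by number did not pass. LOC103958002 rose, as given above, while LOC103958000 had 8.28, 16.17 and 9.51 FPKM under B deficiency, against 9.67, 11.55 and 11.79 FPKM in control roots (adjusted p = 0.969). LOC103929427 rose, whereas LOC103929422 had 23.88, 25.98 and 24.25 FPKM under B deficiency, against 14.84, 15.52 and 15.20 FPKM in control roots (log2 fold change 0.70, SE 0.065, adjusted p = 0.000368). The longest run, from LOC125469491 to LOC125469498, held 8 members, and none passed, with log2 fold changes between -0.62 and 0.44. Over the whole group, 186 pairs of members shared a database hit. Of the pairs with both members past the test, 23 moved in the same direction and 1 (LOC103955253 and LOC108865430) in opposite directions, and 60 pairs had 1 member that passed. The pairs are not independent, since a gene can enter several of them. LOC108865689 and LOC125475832 share hits with each other and with every member of the LOC125475726 run. They rose by 1.50 (SE 0.16) and 1.31 (SE 0.16) on the log2 scale, and each pairing among these genes and the run is counted in the 23. The part of reads divided among close copies in these values was not tested.

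**Figure D4:**
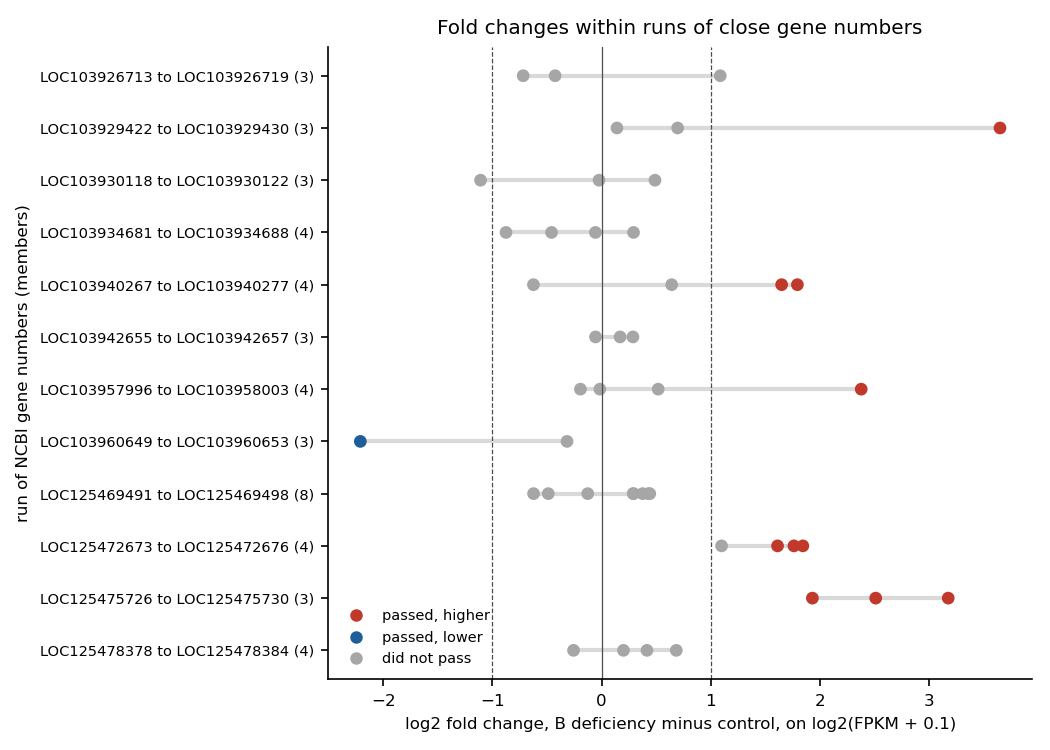
Log2 fold change (B deficiency minus control, on log2(FPKM + 0.1)) of members in 12 runs of close NCBI gene numbers, 1 row per run with the number of members in parentheses; red points rose, blue points fell and grey points did not pass. LOC103960652, listed at 0 in every B deficiency library, is not drawn, and some rows hold a single coloured point.

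The genes that act downstream of TIR enzymes were then examined. The EDS1 family was found by its EDS1-specific domain in 11 genes, of which 10 were tested, 1 rose (10%, beside 4.37% of all genes) and none fell. At an adjusted p under 0.05 with no minimum fold 6 of the 10 were higher and none lower, where 12% of all genes were higher and 15.4% lower, and the median log2 fold change was 0.49, against -0.05 for all genes. Their summed level was 709.6 to 712.6 FPKM in B deficiency libraries and 486.1 to 490.2 FPKM in control libraries. LOC125479715, a SAG101-like gene, had 56.18, 63.18 and 56.64 FPKM under B deficiency, against 3.37, 2.07 and 2.76 FPKM in control roots (log2 fold change 4.40, SE 0.16, adjusted p = 1.22e-05). The most abundant of the family, the SAG101 gene LOC103928442, had 274.49, 275.49 and 273.39 FPKM under B deficiency, against 187.46, 199.73 and 194.07 FPKM in control roots (log2 fold change 0.50, SE 0.045, adjusted p = 0.000310). Another SAG101-like gene, LOC125474340, had 79.63, 78.42 and 81.94 FPKM under B deficiency, against 48.68, 47.68 and 48.72 FPKM in control roots (log2 fold change 0.72, SE 0.047, adjusted p = 8.82e-05). EDS1-like LOC125478902 had 180.07, 190.35 and 181.13 FPKM under B deficiency, against 145.78, 142.19 and 149.60 FPKM in control roots (log2 fold change 0.33, SE 0.048, adjusted p = 0.00239). All libraries of these 4 genes were higher under B deficiency, the last 3 by less than the minimum fold. PAD4-like LOC103946787 had 49.13, 41.66 and 50.54 FPKM under B deficiency, against 53.43, 50.80 and 49.72 FPKM in control roots, with overlapping groups (log2 fold change -0.13, SE 0.082, adjusted p = 0.295).

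An RPW8 domain was listed for 41 genes. Of the 32 tested, 4 rose (12.5%, beside 4.37% of all genes) and none fell. At an adjusted p under 0.05 without a minimum fold 13 were higher and none lower, beside 12% higher and 15.4% lower over all genes, and the median log2 fold change was 0.35. Of the 25 that also carry NB-ARC, as helper receptors do, 2 rose (8.0%, beside 4.37% of all genes). LOC103956306, described by its Arabidopsis match At5g66900, an NRG1 helper, had 29.48, 45.16 and 31.61 FPKM under B deficiency, against 11.25, 10.95 and 10.83 FPKM in control roots (log2 fold change 1.65, SE 0.15, adjusted p = 0.000356). LOC125473055 had 1.96, 2.60 and 2.72 FPKM under B deficiency, against 0.43, 0.64 and 0.68 FPKM in control roots (log2 fold change 1.89, SE 0.25, adjusted p = 0.00190). The most abundant helper-type gene, LOC103957587, had 80.15, 78.76 and 83.14 FPKM under B deficiency, against 58.71, 60.15 and 61.68 FPKM in control roots (log2 fold change 0.42, SE 0.049, adjusted p = 0.00101). LOC103956519, with an RPW8 domain alone, had 8.48, 7.32 and 8.30 FPKM under B deficiency, against 0.25, 0.15 and 0.11 FPKM in control roots (log2 fold change 4.94, SE 0.25, adjusted p = 3.15e-05). LOC103956205, described as RESISTANCE TO POWDERY MILDEW 8.2-like, had 0.42, 2.34 and 0.76 FPKM under B deficiency, against 0, 0.10 and 0 FPKM in control roots (log2 fold change 3.03, adjusted p = 0.0176), and lost its call without control library 1 (adjusted p = 0.0544), without control library 3 (adjusted p = 0.0537) and with a pseudocount of 1 (adjusted p = 0.0503).

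**Figure D5:**
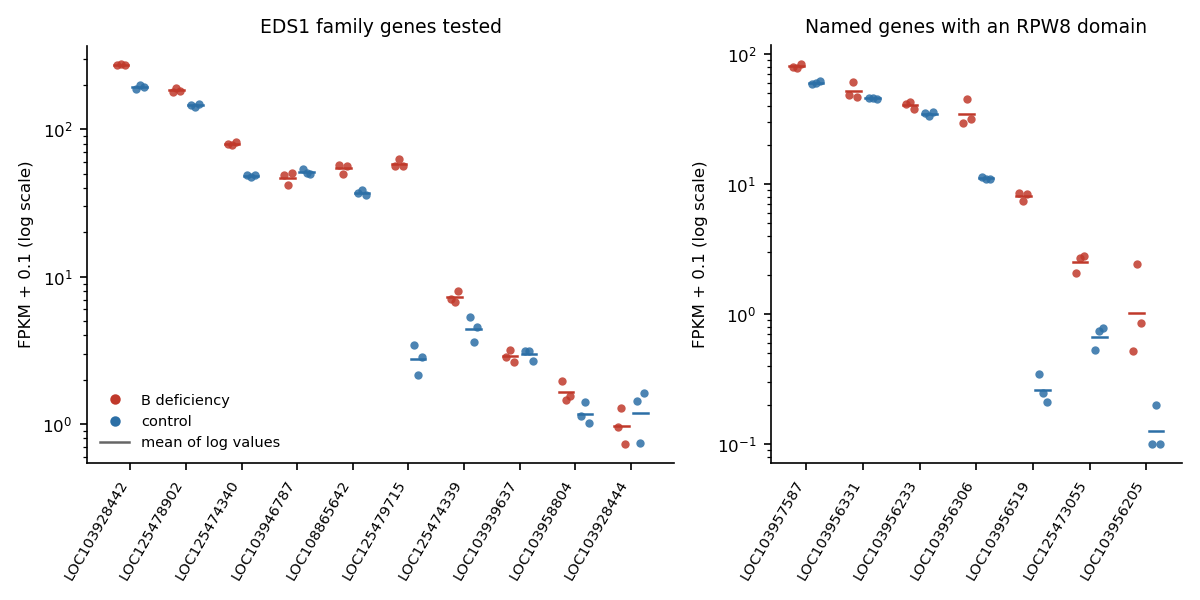
FPKM + 0.1 on log axes in each library for the 10 EDS1 family genes tested (left) and the 7 named genes with an RPW8 domain (right), ordered by mean level; points are libraries (red, B deficiency; blue, control, 3 each) and lines the means of the log values. LOC125479715 and LOC103956519 show the widest gaps between the groups.

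Other lists around these receptors were tested in the same way. Of 33 genes for receptor chaperones and regulators that were tested, none rose (beside 4.37% of all genes) and 1 fell (3.03%, beside 3.83%). The gene that fell was the TOPLESS-like corepressor gene LOC103955294, with 11.92, 9.60 and 12.12 FPKM under B deficiency, against 37.85, 34.15 and 33.26 FPKM in control roots (log2 fold change -1.64, SE 0.11, adjusted p = 8.53e-05). Genes were listed for salicylic acid by their descriptions. Most are from wide families such as calmodulin-binding protein 60 (CBP60), NPR-like and flavin-containing monooxygenase 1 genes, which need not all act in its synthesis or signalling. Of the 26 tested, 3 rose (11.5%, beside 4.37% of all genes) and none fell. Without a minimum fold 4 were higher and 4 lower at an adjusted p under 0.05, with a median log2 fold change of 0.033. Those that rose were the CBP60-like genes LOC103962297 and LOC103939050 and the monooxygenase gene LOC103940516, which averaged 0.24 FPKM in control roots. The largest rise among them was in LOC103939050, a CBP60F-like gene of a family of calmodulin-binding transcription regulators, with 17.82, 20.93 and 14.66 FPKM under B deficiency, against 2.09, 1.98 and 2.62 FPKM in control roots (log2 fold change 2.94, SE 0.16, adjusted p = 4.91e-05). Small RNA genes were included because microRNAs that target NB-ARC receptor transcripts, and the phased small RNAs they trigger, are known regulators of such receptors. Of 25 tested, none rose (beside 4.37% of all genes) and 1 fell (4.0%, beside 3.83%), a share near that of all genes. The gene that fell was the argonaute 4A-like gene LOC103931464, with 0.39, 0.75 and 0.26 FPKM under B deficiency, against 0.94, 1.36 and 1.24 FPKM in control roots (log2 fold change -1.25, SE 0.39, adjusted p = 0.0493). Its call was lost in 10 of the alternative fits, with adjusted p-values up to 0.149. Small RNAs themselves were not measured.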

How the data were processed

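RNA was sequenced from root tips of 3 B deficiency and 3 control libraries. According to the study's methods, cleaned reads were aligned by the authors with STAR against the P. bretschneideri genome, genes were quantified with RSEM, and the authors deposited FPKM values per gene and library. The submitters' processing notes name HISAT2, Cufflinks 2.2.1, DESeq2 and the mouse builds mm8 and mm9 instead, so the upstream tools are uncertain. The study lists mapped reads per library, but the deposited tables hold no counts, so the reads behind a single FPKM value are not known here. Libraries were assigned by label, and control columns were matched by replicate number. The deposited tables also hold 4 columns of group means, ratios and test values of the authors' own comparison, which were not used, and 1010760 empty lines without a gene were dropped.

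Values were analysed as log2(FPKM + 0.1) where the mean reached 0.5 FPKM (28129 genes). They were fitted with limma 3.58.1 (lmFit and eBayes with a trend, R 4.3.3), B deficiency minus control, with Benjamini-Hochberg adjustment over all genes and two-sided p-values. To pass, a gene needed a log2 change of 1 or more in size together with an adjusted p under 0.05. With 3 libraries a group, an exact permutation test of one gene cannot go below p = 0.1. Whether libraries came from separate plants is not stated beyond their label as biological replicates, so p-values measure the spread between these libraries.

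Alternatives were pseudocounts of 0.01 and 1, a minimum of 1 FPKM or none, median-of-ratios and quantile scaling, no trend, library weights, no minimum fold, a replicate block, the domain name TIR matched whole, and each library left out. A condition of 0.5 FPKM in both group means was added after seeing the data. Members and lists were chosen with earlier results of these data known. Genes named were, among members past the test, the 8 largest rises and falls with NB-ARC, 5 without NB-ARC and 3 among added loci, and the largest with each extra domain; the 5 highest means with and without NB-ARC; the 2 on each side of the minimum; and, in the EDS1 and RPW8 lists, the highest and those past the test, with the largest in the others. Near-identical proteins were not compared, and no sequences were used here.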

Additional observations from a re-analysis of the deposited data

How the results depend on the processing

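No member that passed was called in the opposite direction under any alternative, and 41 of the 60 passed in every fit that tested them. The 37 rises and 23 falls became 25 and 19 with a pseudocount of 1, 27 and 21 with a minimum of 1 FPKM, 39 and 21 with median-of-ratios scaling, 37 and 21 with quantile scaling and 39 and 25 with library weights. Counts moved by over 1.5 times in a few cases: 24 rises with both group means at 0.5 FPKM, 51 falls without a minimum fold, 20 rises with NB-ARC with a pseudocount of 1, 45 falls with NB-ARC without a minimum fold, and, for genes without NB-ARC, 4 falls without a minimum fold and 1 with library weights. The settings on fold and on group means loosen or tighten the rule itself, and for the other settings the cause was not tested. Leaving out 1 library gave 32 to 39 rises and 20 to 25 falls among all members, 27 to 34 rises and 18 to 22 falls with NB-ARC, and 3 to 5 rises and 0 to 1 falls without NB-ARC, the 1 without B deficiency library 2. Same-numbered libraries of the 2 groups did not deviate together (correlations of 0.040, 0.035 and -0.005), so the numbers pair nothing; with a replicate block 38 members rose and 24 fell, and 58 of the 60 calls were made again. Among 66 named genes tested, 995 values under alternatives stayed on their side of the test, 34 lost the call, 14 gained one and none turned. Without read counts per gene, the counting error of members near 0.5 FPKM could not be given.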
